A study of Mus musculus with 8 samples.

Results

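The aldehyde, alcohol and retinol dehydrogenases are enzymes that move hydride between alcohols, aldehydes or ketones and a nicotinamide cofactor. The families were chosen with earlier results of these data known. Within them genes were taken by symbol alone, if it begins with Akr1, or with Aldh, Adh, Rdh or Dhrs and a number. A gene needed a probe set that lists no other gene, which left out Akr1c13, listed only together with Akr1c12. Akr1b3 and Akr1b7 were also left out, as no probe set lists these symbols. This rule gave 64 of the 22180 genes measured, in 5 families: 21 Aldh, 7 Adh, 13 Akr1, 13 Rdh and 10 Dhrs genes. Their RNA was measured in cells sorted from the colon of female C57BL/6 mice as CD45-CD11b-CD31+ on day 2 after bone marrow transplantation. All recipients had received busulfan and cyclophosphamide for 5 days, and then bone marrow and T cells at the same doses. By the sample characteristics, the syngeneic group had C57BL/6 donors and the allogeneic group had LP/J donors, with 4 arrays of 1 mouse each in both groups. The growth protocol instead names the LP/J and C57BL/6 animals recipients, and the characteristics were followed here. No untransplanted or unconditioned mice are among these samples, so both groups carry the conditioning, and the age of the mice is not given in the sources used here.

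Retinol, the alcohol form of vitamin A, is oxidised to retinal by retinol dehydrogenases of the Rdh, Dhrs and Adh families. Retinal is oxidised irreversibly to retinoic acid by Aldh1a1, Aldh1a2 and Aldh1a3. Retinoic acid binds nuclear receptors, and in the intestine it shapes the homing of T cells and the tone of mucosal immunity. Many of the other Aldh enzymes clear acetaldehyde, lipid aldehydes or intermediates of amino acid breakdown. Many Akr1 enzymes reduce ketosteroids and reactive aldehydes, and epithelial cells of the gut express many of these enzymes at high levels.

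Markers of other cell types had signals beside those of the labelled endothelial cells. Of the defining endothelial genes, Pecam1 (CD31) had a log2 signal of 10.12 ± 0.32 (SD, n = 4) on allogeneic and 10.63 ± 0.80 (SD, n = 4) on syngeneic arrays. The leukocyte gene Ptprc (CD45) had 5.20 ± 0.76 and 5.19 ± 0.63, and Itgam (CD11b) 5.27 ± 0.13 and 5.41 ± 0.43. The epithelial gene Car1 reached 13.16 ± 0.12 and 12.84 ± 0.36, and Epcam 9.49 ± 0.02 and 9.23 ± 0.21. Syngeneic arrays 3 and 4 stood apart: their means over 20 endothelial genes were 9.06 and 9.92, against 7.69 to 8.40 on the other arrays, and their means over 20 colon epithelial genes were 10.14 and 9.89, against 10.44 to 10.68. In such bulk samples, fewer cells of a type and less RNA per cell cannot be told apart.

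Among the 64 genes, 2 had higher signals on allogeneic arrays at a limma adjusted p below 0.05, Akr1c14 and Aldh1a7, and 0 had lower signals. These 2 are 3.12% of the genes, beside 0.356% of all 22180 genes called higher and 0.113% called lower. As the families were chosen with earlier results known, this share and those below are descriptions and were not tested. At an unadjusted p below 0.05, 15 of the 64 were higher (23.4%, against 7.81% of all genes) and 3 were lower (4.69%, against 5.43%), so the lower ones were near the share of all genes. The allogeneic and syngeneic arrays did not overlap for 10 of the 64 (15.6%), all of them higher (Adh1, Akr1c14, Akr1c20, Aldh1a1, Aldh1a7, Aldh2, Aldh5a1, Dhrs2, Dhrs11 and Rdh14), where 5.18% of all genes were separated upward and 3.36% downward. The median log2 change, allogeneic minus syngeneic, was 0.09 over the 64 genes and -0.01 over all genes, and 44 of the 64 changes were positive (68.8%, against 49.0% of all genes). Leaving out syngeneic arrays 3 and 4, 34 of the 64 changes were positive, and the median change over all genes was 0. The share of all genes with positive changes was not computed in that fit. There, 1 of the 64 genes, Adh1, passed the threshold. Of all genes, 26 were then called higher, beside 79 with all arrays.

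By family, the Aldh genes had 18 of 21 positive changes (85.7%, against 49.0% of all genes), a median change of 0.21 and 1 call. The Adh genes had 4 of 7 positive changes and a median of 0.10, the Akr1 genes 8 of 13 and 0.08 with 1 call, the Rdh genes 7 of 13 and 0.01, and the Dhrs genes 7 of 10 and 0.06. At an unadjusted p below 0.05, 6 Aldh, 1 Adh, 4 Akr1, 1 Rdh and 3 Dhrs genes were higher, and 1 Akr1, 1 Rdh and 1 Dhrs gene were lower. The Rdh share, 7.69% in each direction, was near that of all genes. Without syngeneic arrays 3 and 4 the medians were 0.10 for Aldh, -0.01 for Adh, -0.02 for Akr1, -0.07 for Rdh and 0.09 for Dhrs. Of the 64 genes, 42 had a mean above 4.73, the median of all probe set values, and 22 did not. Of these 22, 4 had a mean at or below 3.18, the highest signal seen for 3 genes of the Y chromosome, which female mice lack.

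**Figure D1:**
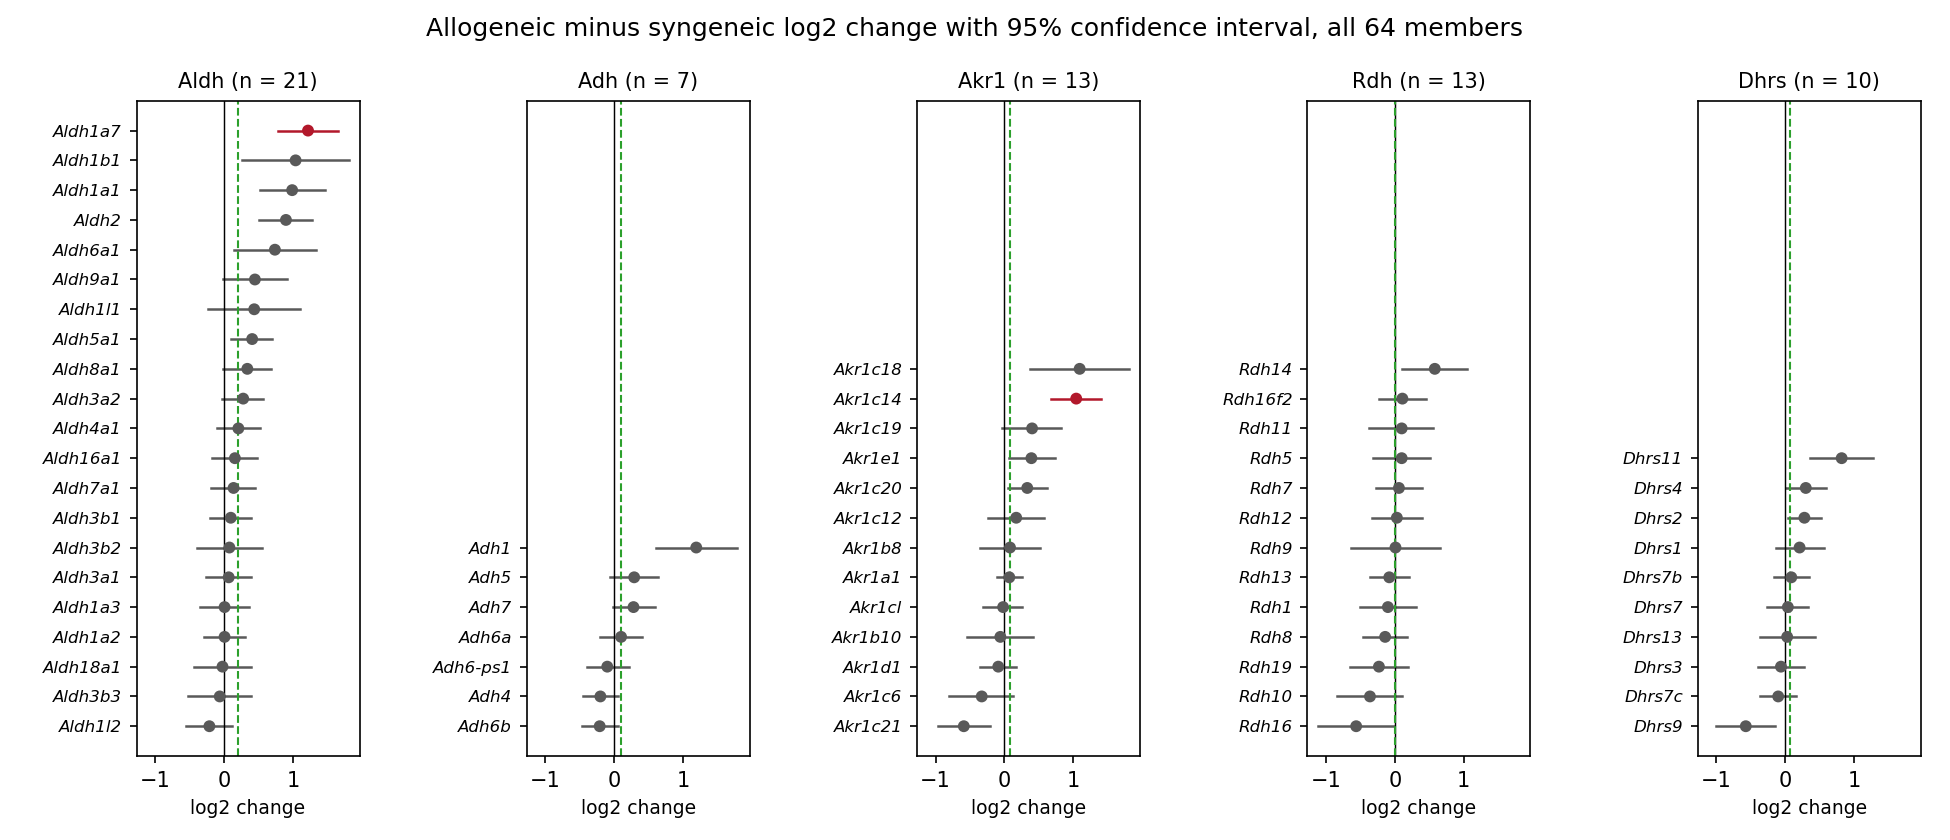
Log2 change (x axis, allogeneic minus syngeneic, 4 arrays each) of all 64 genes, 1 panel per family, with 95% confidence intervals as bars, the family median as a dashed line and calls in red. Aldh1a7 and Akr1c14 are the 2 calls, and the family medians run from 0.01 (Rdh) to 0.21 (Aldh).

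Among the Aldh1a genes, the neighbours Aldh1a1 and Aldh1a7 stood together. Aldh1a1 encodes the main cytosolic retinal dehydrogenase, and Aldh1a7 is a close rodent copy of the gene. What the Aldh1a7 enzyme oxidises was not measured here. Their promoters are shown because they are the most alike of the neighbouring pairs with both starts known. Of the alignment columns, gaps included, 70.4% were identical, against a median of 47.4% over the 49 neighbouring pairs aligned. The 300 bases below run from 250 before to 50 after the start of each gene in RefSeq, build GRCm38.p6, on the gene's own strand. They lie at chr19:20601718-20602017 (plus strand) for Aldh1a1, where the more similar of 2 listed starts is shown, and chr19:20727507-20727806 (minus strand) for Aldh1a7. Capitals mark the longest stretch identical in both, 65 bases that end 30 bases before the start.
Aldh1a1: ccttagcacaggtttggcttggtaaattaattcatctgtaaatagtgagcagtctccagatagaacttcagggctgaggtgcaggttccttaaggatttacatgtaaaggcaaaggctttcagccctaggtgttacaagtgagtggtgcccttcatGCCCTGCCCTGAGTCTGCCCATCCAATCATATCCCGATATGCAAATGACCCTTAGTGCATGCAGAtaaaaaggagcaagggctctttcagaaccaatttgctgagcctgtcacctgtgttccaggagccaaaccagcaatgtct
Aldh1a7: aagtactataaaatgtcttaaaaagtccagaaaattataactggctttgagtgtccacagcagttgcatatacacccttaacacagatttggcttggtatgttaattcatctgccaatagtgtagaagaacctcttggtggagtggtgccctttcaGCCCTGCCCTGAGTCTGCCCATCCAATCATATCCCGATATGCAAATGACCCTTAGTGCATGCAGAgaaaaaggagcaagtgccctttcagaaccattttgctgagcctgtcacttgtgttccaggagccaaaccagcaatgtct

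Aldh1a7 rose on allogeneic arrays. Its log2 signals were 7.29, 7.39, 7.35 and 8.05 on allogeneic arrays 1 to 4, and 6.54, 6.46, 6.20 and 5.99 on syngeneic arrays 1 to 4. The groups did not overlap, and allogeneic array 4 lay above the other allogeneic arrays. The means of 7.52 ± 0.36 and 6.30 ± 0.25 (SD, n = 4 each) differed by 1.22 ± 0.20 (SE), 2.33-fold, with a limma adjusted p of 0.034. The call was lost without allogeneic array 1, 2, 3 or 4 or syngeneic array 1 or 3 (adjusted p up to 0.113), and the change was 0.88 with an adjusted p of 0.312 when the epithelial marker mean entered the fit.

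Aldh1a1 followed with 9.36, 9.19, 9.58 and 9.10 on allogeneic and 8.03, 8.99, 8.10 and 8.12 on syngeneic arrays. These did not overlap either, but syngeneic array 2 sat far above its group. The change of 0.99 ± 0.21 (SE) had an adjusted p of 0.0741 and did not pass, and without syngeneic array 2 it was 1.22 with an adjusted p of 0.0137. Without that array 145 of all genes were called higher, beside 79 with all arrays. Leaving out any other array did not bring a call (adjusted p up to 0.211), and with the epithelial marker mean in the fit the change was 0.75 (0.489). The other retinal dehydrogenases, both dim here, had overlapping groups. Aldh1a2 had 4.47, 4.57, 4.46 and 4.59 on allogeneic and 4.63, 4.36, 4.76 and 4.29 on syngeneic arrays, a difference of 0.01 ± 0.14 (SE, 95% confidence interval -0.29 to 0.31). Aldh1a3 had 4.57, 4.29, 4.91 and 4.63 against 4.78, 4.62, 4.30 and 4.67, a difference of 0.01 ± 0.16 (-0.35 to 0.37).

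**Figure D2:**
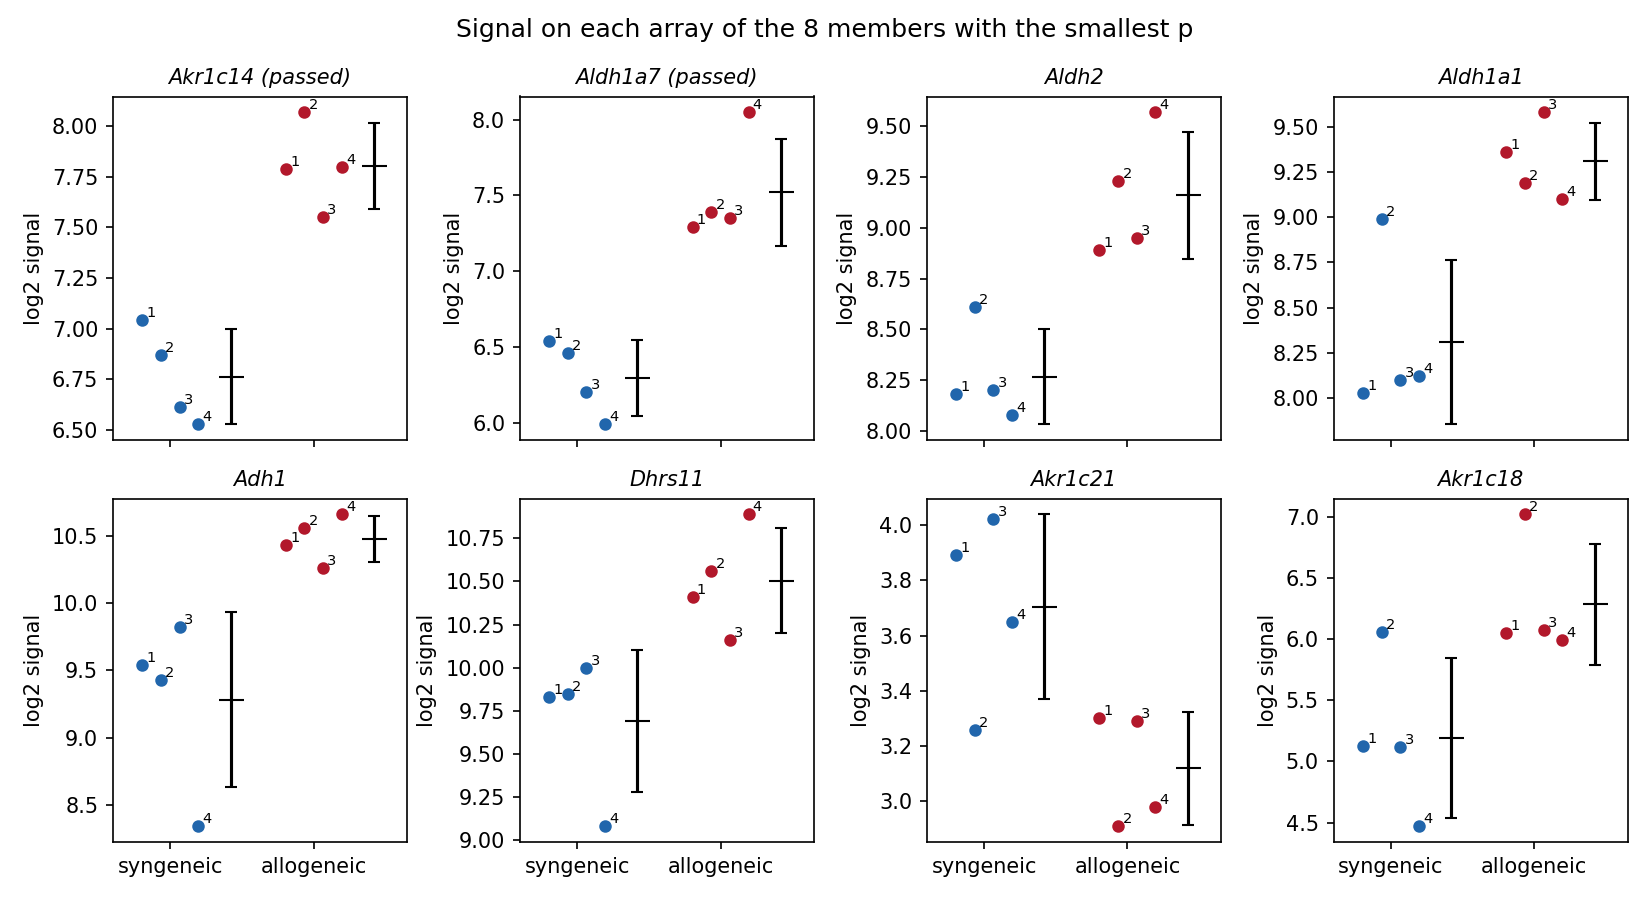
Log2 signal (y axis, own scale per panel) on each of the 4 syngeneic (blue) and 4 allogeneic (red) arrays for the 8 genes with the smallest p, numbered by array, with the mean and SD beside each group. The groups of Akr1c14, Aldh1a7, Aldh2, Aldh1a1, Adh1 and Dhrs11 do not overlap, while those of Akr1c21 and Akr1c18 do.

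Among the enzymes that clear other aldehydes, the mitochondrial acetaldehyde dehydrogenase Aldh2 had 8.89, 9.23, 8.95 and 9.57 on allogeneic arrays and 8.18, 8.61, 8.20 and 8.08 on syngeneic arrays. All allogeneic arrays were above all syngeneic arrays, but the change of 0.90 ± 0.18 (SE) had an adjusted p of 0.059. Without syngeneic array 2 it was 1.01 with an adjusted p of 0.0382, and with the epithelial marker mean in the fit 0.65 (0.439). Of all genes, 145 were called higher without syngeneic array 2, beside 79 with all arrays. Leaving out any other single array brought no call (adjusted p from 0.0832 to 0.182). A second Aldh2 probe set, with a mean of 8.14, gave a smaller change of 0.58 ± 0.16. Aldh1b1, a mitochondrial relative of Aldh2, had 8.98, 9.02, 9.01 and 8.67 on allogeneic and 8.25, 8.76, 7.80 and 6.70 on syngeneic arrays. Allogeneic array 4 lay below syngeneic array 2, so the groups overlapped, and the change of 1.04 ± 0.35 had an adjusted p of 0.229. With the epithelial marker mean in the fit, the Aldh1b1 change was 0.17, and without syngeneic array 4 it was 0.65.

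The Aldh enzymes of amino acid and polyamine breakdown gave smaller differences. Succinate semialdehyde dehydrogenase, Aldh5a1, had 5.97, 6.24, 6.19 and 6.15 on allogeneic and 5.74, 5.89, 5.73 and 5.55 on syngeneic arrays. The groups did not overlap, and the change of 0.41 ± 0.13 (SE) had an adjusted p of 0.215. Aldh6a1, which acts in valine and thymine breakdown, had 6.31, 5.76, 6.40 and 6.90 against 5.03, 5.99, 5.46 and 5.93, with overlap and a change of 0.74 ± 0.27 (adjusted p = 0.266). Aldh9a1, of carnitine synthesis, had 9.39, 9.53, 9.91 and 9.51 against 9.58, 9.38, 9.02 and 8.56, with overlap and a change of 0.45 ± 0.21 (adjusted p = 0.39). The Aldh9a1 change was 0.26 without syngeneic array 4, 0.10 without syngeneic arrays 3 and 4, and 0.02 with the epithelial marker mean in the fit. The other 12 Aldh genes had changes from -0.21 (Aldh1l2) to 0.44 (Aldh1l1) and adjusted p of at least 0.387; among them were the fatty aldehyde dehydrogenase Aldh3a2 (0.28 ± 0.13) and the proline synthesis enzyme Aldh18a1 (-0.02 ± 0.19).

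In the Adh family, class I alcohol dehydrogenase Adh1, which oxidises ethanol and retinol, had the largest change. Its signals were 10.43, 10.56, 10.26 and 10.66 on allogeneic and 9.54, 9.43, 9.82 and 8.34 on syngeneic arrays. The groups did not overlap, and syngeneic array 4 was the lowest by far. The change of 1.19 ± 0.27 (SE) had an adjusted p of 0.0869 and did not pass. Without syngeneic array 4 it was 0.88 with an adjusted p of 0.0217, and without syngeneic arrays 3 and 4 it was 0.99 (0.024). In these fits 92 and 26 of all genes were called higher, beside 79 with all arrays. Leaving out any other single array brought no call (adjusted p from 0.0909 to 0.224). With the epithelial marker mean in the fit the change was 0.71 (adjusted p = 0.564), and as the mean of both Adh1 probe sets 0.65 (0.142). A second Adh1 probe set was near background, with a mean of 2.86. Adh7, the class IV enzyme that acts on retinol, had 3.83, 3.96, 3.61 and 3.57 against 3.47, 3.58, 3.17 and 3.60, with overlap and a change of 0.28 ± 0.14 (adjusted p = 0.41). The remaining 5 genes, including the formaldehyde-clearing Adh5 (0.29 ± 0.16), had adjusted p of at least 0.472.

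The Akr1 family holds the second call. Akr1c14, a 3-alpha-hydroxysteroid dehydrogenase, rose from 7.04, 6.87, 6.61 and 6.53 on syngeneic arrays to 7.79, 8.07, 7.55 and 7.80 on allogeneic arrays. The groups did not overlap. The means of 7.80 ± 0.21 and 6.76 ± 0.23 (SD, n = 4 each) differed by 1.04 ± 0.16 (SE), 2.05-fold, with a limma adjusted p of 0.0308. The call was lost without allogeneic array 1, 2 or 4 or syngeneic array 3 (adjusted p up to 0.114), and the change was 0.82 with an adjusted p of 0.297 with the epithelial marker mean in the fit.

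Next to Akr1c14 on the chromosome lies Akr1c18, a 20-alpha-hydroxysteroid dehydrogenase that inactivates progesterone. It had 6.05, 7.02, 6.07 and 5.99 on allogeneic and 5.13, 6.06, 5.12 and 4.47 on syngeneic arrays. Array 2 was the highest of both groups, the groups overlapped, and the change of 1.09 ± 0.33 (SE) had an adjusted p of 0.178. It was 0.56 with the epithelial and 0.57 with the endothelial marker mean in the fit, and 0.69 without syngeneic arrays 3 and 4. The promoters of these 2 neighbours are shown as a contrast to the Aldh1a pair. Of the alignment columns, gaps included, 52.2% were identical, and the longest shared stretch, in capitals, was 8 bases. The promoters lie at chr13:4059341-4059640 (plus strand) and chr13:4150597-4150896 (minus strand) of GRCm38.p6, from RefSeq.
Akr1c14: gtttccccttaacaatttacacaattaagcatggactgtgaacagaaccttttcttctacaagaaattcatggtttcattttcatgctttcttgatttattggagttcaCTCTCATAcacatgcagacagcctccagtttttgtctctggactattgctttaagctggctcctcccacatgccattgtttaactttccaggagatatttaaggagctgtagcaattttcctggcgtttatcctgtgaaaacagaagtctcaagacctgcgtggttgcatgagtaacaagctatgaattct
Akr1c18: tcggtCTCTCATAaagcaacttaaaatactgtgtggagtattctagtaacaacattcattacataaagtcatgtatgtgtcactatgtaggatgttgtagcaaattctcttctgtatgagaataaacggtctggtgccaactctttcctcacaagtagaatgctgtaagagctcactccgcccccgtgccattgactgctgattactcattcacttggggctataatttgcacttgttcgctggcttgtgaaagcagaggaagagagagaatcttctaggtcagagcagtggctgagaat

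None of the other Akr1c genes of the same neighbourhood passed the threshold. Akr1c21, a 17-alpha-hydroxysteroid dehydrogenase, had low signals, with 3.30, 2.91, 3.29 and 2.98 on allogeneic and 3.89, 3.26, 4.02 and 3.65 on syngeneic arrays, and a change of -0.59 ± 0.17 (adjusted p = 0.166). Akr1c20 lay below the highest Y-linked value on all arrays, with 2.55, 2.54, 2.53 and 2.96 against 2.41, 2.07, 2.40 and 2.37, so its change of 0.33 ± 0.13 (adjusted p = 0.289) is at background. Akr1a1, the general aldehyde reductase, varied little, with 10.86, 10.96, 10.88 and 10.91 against 10.87, 10.99, 10.70 and 10.75 and a change of 0.07 ± 0.08 (95% confidence interval -0.11 to 0.26). The other 8 Akr1 genes had changes from -0.33 (Akr1c6) to 0.40 (Akr1c19), with adjusted p of at least 0.296.

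**Figure D3:**
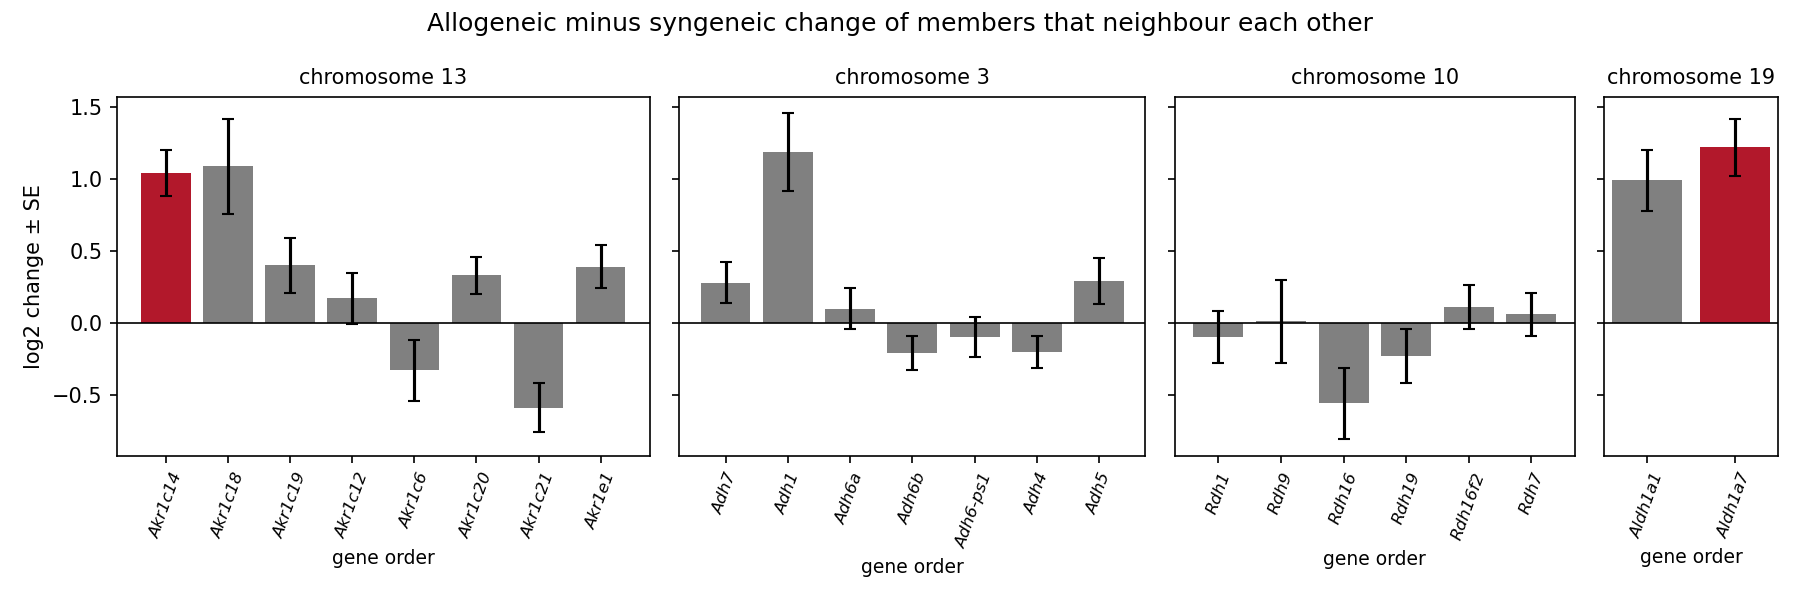
Log2 change ± SE (y axis, allogeneic minus syngeneic, 4 arrays each) of neighbouring genes in their order along chromosomes 13, 3, 10 and 19, with calls in red. Changes within a neighbourhood range from -0.59 (Akr1c21) to 1.09 (Akr1c18) on chromosome 13, and are 0.99 and 1.22 for the Aldh1a1 and Aldh1a7 pair.

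Differences between neighbours were not tested, and the values are given side by side. In all, 36 of the 64 genes lay within 1000000 bases of another of them by gene start. In the Adh neighbourhood on chromosome 3 the Adh1 change of 1.19 stood beside changes from -0.21 (Adh6b) to 0.29 (Adh5), and in the Rdh neighbourhood on chromosome 10 the changes ran from -0.56 (Rdh16) to 0.11 (Rdh16f2).

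The retinol dehydrogenases of the Rdh and Dhrs families had no call. Rdh14 had 7.21, 7.53, 7.60 and 7.26 on allogeneic and 7.19, 7.11, 6.22 and 6.76 on syngeneic arrays, which just failed to overlap, and a change of 0.58 ± 0.21 (SE, adjusted p = 0.273). The Rdh14 change was 0.38 without syngeneic array 3, 0.25 without syngeneic arrays 3 and 4, and 0.33 with the epithelial marker mean in the fit. Rdh10, which makes retinal from retinol, had 8.33, 7.35, 8.27 and 8.20 against 8.62, 8.33, 8.48 and 8.16. Allogeneic array 2 was far below its group, and the change of -0.36 ± 0.22 had an adjusted p of 0.512. Without that array the Rdh10 change was -0.13. Dhrs3, which reduces retinal back to retinol, had 9.39, 9.42, 9.21 and 9.61 against 9.24, 9.20, 9.72 and 9.70 and a change of -0.06 ± 0.15 (95% confidence interval -0.39 to 0.28).

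The Dhrs gene with the largest change was Dhrs11, a ketosteroid reductase, at 10.41, 10.56, 10.16 and 10.89 on allogeneic and 9.83, 9.85, 10 and 9.08 on syngeneic arrays. The groups did not overlap, and the change of 0.82 ± 0.21 (SE) had an adjusted p of 0.125. With the epithelial marker mean in the fit it was 0.44 (0.685). Dhrs9, which acts on retinol and steroids, was lower, at 6.02, 6.16, 5.58 and 5.32 against 6.12, 6.43, 6.36 and 6.45. Only allogeneic array 2 overlapped the syngeneic range, and the change of -0.57 ± 0.19 had an adjusted p of 0.238. Rdh16, a microsomal dehydrogenase of retinol and steroids, had 6.23, 6.17, 6.39 and 5.62 against 7.11, 7.07, 6.22 and 6.27, with overlap and a change of -0.56 ± 0.25 (adjusted p = 0.368). Counting Rdh16, the other 11 Rdh genes had adjusted p of at least 0.368 and the other 7 Dhrs genes of at least 0.305.

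Known response elements were looked for in the promoters of the 51 genes with a RefSeq promoter, on both strands. The antioxidant response element core TGACNNNGC was in 6 of 51 (11.8%, against 14.0% of genes), and the nuclear receptor hexamer AGGTCA in 13 of 51 (25.5%, against 18.1%). The hexamer is also part of the direct repeats below. TATAAA was in 10 of 51 (19.6%, against 15.7%). Direct repeats of the hexamer spaced by 1 or 5 bases were in 0 of 51, and in 0.0481% and 0.0111% of genes. Of the 4 promoters shown, Aldh1a7 had TATAAA, with its first base at -244 from the start, and Akr1c18 had AGGTCA with its first base at 28. A match is only a match of letters.

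Other genes of the same pathways were taken from 2 lists. Of 27 measured genes for retinoid handling outside the families, 0 passed the limma threshold, and 7 were higher and 0 lower at an unadjusted p below 0.05, where 7.81% and 5.43% of all genes were. The retinol carrier partner Ttr had 8.89, 8.98, 8.58 and 8.96 on allogeneic and 7.30, 7.93, 6.96 and 5.92 on syngeneic arrays, with a change of 1.83 ± 0.34 (SE, adjusted p = 0.0508). Beside it, the carotenoid-cleaving Bco2 had a change of 0.76 ± 0.18 (adjusted p = 0.103), the retinol saturase Retsat one of 0.57 ± 0.18 (0.21) and the retinol esterifying Lrat one of 0.83 ± 0.27 (0.215). The list's median change was 0.00, with 14 of 27 positive.

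Of 27 measured carbonyl and quinone reductases and oxidases, 0 passed, and 12 were higher and 2 lower at an unadjusted p below 0.05 (7.81% and 5.43% of all genes), with a median change of 0.25 and 19 positive. The quinone reductase Nqo1 had a change of 0.82 ± 0.16 (SE, adjusted p = 0.0551), the carbonyl reductases Cbr1 and Cbr4 had 0.60 ± 0.12 (0.0551) and 0.61 ± 0.12 (0.059), and xanthine dehydrogenase Xdh had -1.01 ± 0.24 (0.0997). None of these adjusted p-values is below the threshold.

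Marker lists were set beside these differences. The 20 colon epithelial genes had array means of 10.52 to 10.68 on allogeneic and 9.89 to 10.52 on syngeneic arrays, with 18 of 20 changes positive and 1, Car2, called (1.42, adjusted p = 0.0238). All 20 endothelial genes had negative changes, none called, with a median of -0.69 and 7 at an unadjusted p below 0.05. Syngeneic array 3 or 4 was the lowest array for 32 of the 64 genes and for 14 of the 21 Aldh genes (66.7%), against 33.5% of all genes. The 11 stromal genes had array means of 7.65 to 8.48 on allogeneic and 7.62 to 8.20 on syngeneic arrays, and 10 leukocyte genes 4.96 to 5.77 and 5.10 to 5.50. Crypt and cycling cell genes, 6 in all, had 7.12 to 7.58 and 6.78 to 7.65, and 3 glial and neuronal genes 3.88 to 4.12 and 3.92 to 4.01. With the endothelial marker mean in the fit, the change was 0.84 (adjusted p = 0.0899) for Akr1c14 and 1.11 (0.109) for Aldh1a7. Without syngeneic arrays 3 and 4 these changes were 0.85 (0.113) and 1.02 (0.131). The part of these markers in the differences was not tested.

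**Figure D4:**
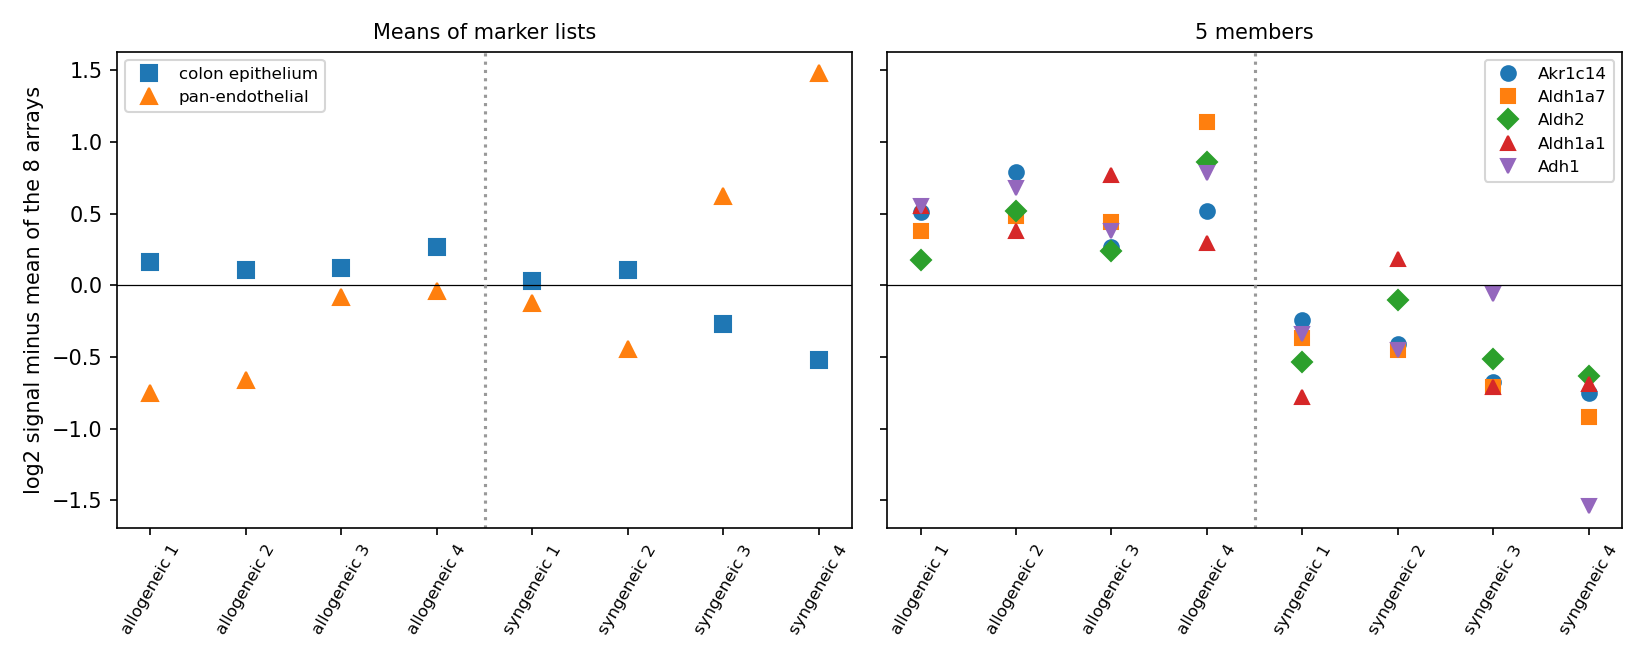
Left, mean log2 signal of the epithelial and endothelial marker genes on each array, and right, log2 signal of 5 genes, all minus the mean over the 8 arrays (y axis) and in array order (x axis). On syngeneic arrays 3 and 4 the epithelial mean is lowest, at 10.14 and 9.89, and the endothelial mean is highest, at 9.06 and 9.92.

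**Figure D5:**
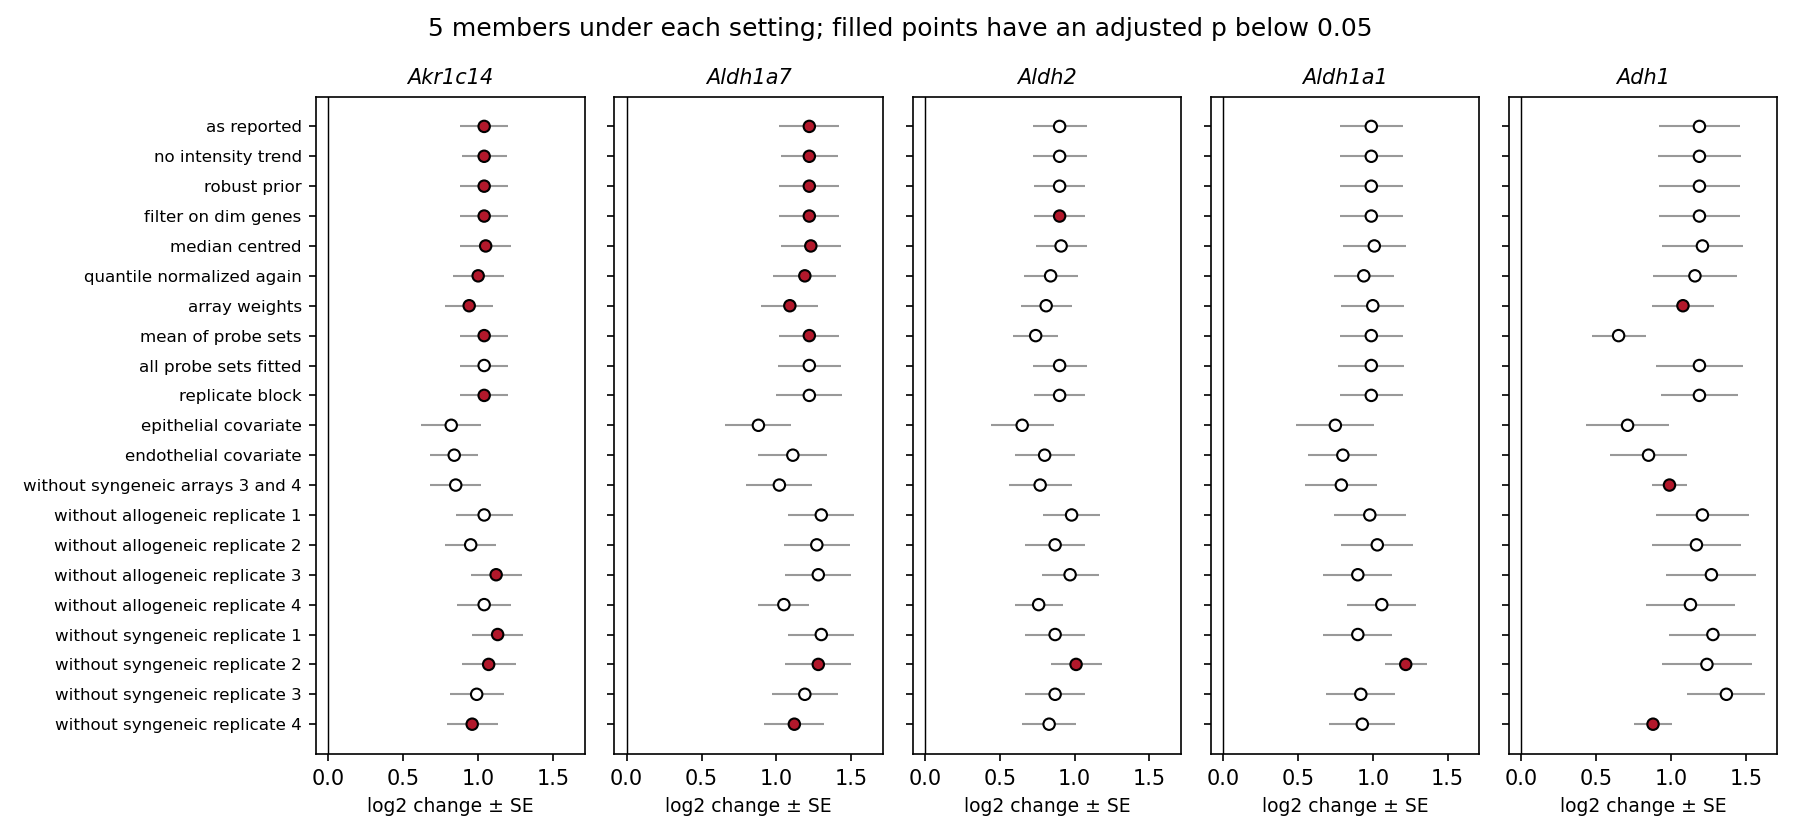
Log2 change ± SE (x axis) of 5 genes as reported and under each alternative (y axis), with filled points where the adjusted p is below 0.05. All changes stay above 0, and Akr1c14 and Aldh1a7 lose the call when a marker mean enters the fit. Of all genes, 4 were called higher with the epithelial and 16 with the endothelial mean, against 79 as reported.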

How the data were processed

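Per probe set, the values are log2 signals as deposited by the authors for 8 Mouse Gene 2.0 arrays. The submitters' processing notes name Affymetrix Expression Console 1.4.1 and RMA, and the sources used here do not give the summary level or annotation. Per the labels' protocols, colon was digested with collagenase, RNA was isolated after sorting, and 700 pg of total RNA was amplified. RMA normalizes quantiles, so uniform shifts between arrays are removed, and values carry no count, so depth does not apply: 4 arrays per group limit precision.

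Probe sets with exactly 1 symbol were used (23521 of 41345), the one with the highest mean per gene, which left 22180 genes. Groups and replicate numbers came from titles. limma 3.58.1 (R 4.3.3, lmFit, eBayes with trend, prior degrees of freedom 4.65) compared allogeneic with syngeneic arrays, with Benjamini-Hochberg adjustment over all genes and a threshold of 0.05. The fit was run on simulated arrays with known changes and independent noise per gene. Such arrays lack shifts shared across genes, so this run cannot give the rate of false calls in these data. The labels do not say that equal replicate numbers mark a shared source, so arrays were not paired, and p-values measure the spread between mice. The members and lists were chosen with earlier results of these data known. Array values are given for called genes, the 12 next by p, retinal and retinol enzymes and the 6 with the highest means, and, of pathway lists, up to 4 genes by p. Alternatives covered the trend, prior, filter, centring, weights, probe sets, block, marker covariates and left-out arrays. Sequences are from RefSeq, GRCm38.p6, and proteins were not analysed here.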

Additional observations from a re-analysis of the deposited data

Results flagged for a closer look

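In 10 of 128 groups of 4 arrays 1 array lay far from the others, by Dixon's gap over range at the 95% level, which chance alone does in about 1 in 20 groups. On allogeneic arrays, Aldh1a7 was highest on array 4 at 8.05 (others 7.29 to 7.39), Akr1c18 on array 2 at 7.02 (5.99 to 6.07), Akr1b10 on array 1 at 7.27 (6.38 to 6.52) and Akr1c20 on array 4 at 2.96 (2.53 to 2.55). Also on allogeneic arrays, Rdh10 was lowest on array 2 at 7.35 (8.20 to 8.33), Aldh1b1 on array 4 at 8.67 (8.98 to 9.02) and Adh6b on array 3 at 3.26 (3.33 to 3.34). On syngeneic arrays, Aldh1a1 was highest on array 2 at 8.99 (8.03 to 8.12), Dhrs1 on array 4 at 9.06 (8.47 to 8.53), and Akr1c20 lowest on array 2 at 2.07 (2.37 to 2.41).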

How the results depend on the processing

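Under the alternatives run, 0 of the 64 genes were called lower. The count called higher, 2 beside 79 of all genes, was 0 with all probe sets fitted, with the epithelial or with the endothelial covariate. All genes called higher were then 6, 4 and 16. The count was 1 without syngeneic arrays 3 and 4, with 26 of all genes, and 5 at an adjusted p below 0.1. All genes were not counted at 0.1, so this 5 has no share of all genes beside it. Leaving out 1 array gave 0 to 4, where all genes called higher ran from 4 to 145. Of the other pathway genes, 0 were called. Their count was 1 without the intensity trend and 1 with the robust prior. With the filter on dim genes it was 4, with median centring 2 and with array weights 3. All genes called higher were then 80, 95, 136, 101 and 115, in that order, and those called lower 25, 28, 54, 26 and 39. The pathway count was 5 at an adjusted p below 0.1, again with no count of all genes, and leaving out 1 array gave 0 to 3. Counts added after seeing the data were the 44 positive changes and the 10 genes without overlap. The positive changes were 31 with the epithelial and 33 with the endothelial covariate and 37 to 45 leaving out 1 array. Genes without overlap were 10 to 15 leaving out 1 array, a step that can only keep or raise this count. Neither count was taken over all genes under these alternatives, so no share of all genes stands beside them. The Adh median of 0.10 was 0.74 with the filter on dim genes, which left 2 genes. Leaving out 1 array, the medians ran from 0.19 to 0.25 for Aldh, 0.04 to 0.21 for Adh, 0.03 to 0.22 for Akr1, -0.10 to 0.01 for Rdh and 0.04 to 0.13 for Dhrs. The labels do not say whether equal replicate numbers share a source. Same-number correlations were 0.055, 0.046, -0.096 and 0.095, which cannot exclude a shared batch. With the replicate block 2 genes were called, Akr1c14 and Akr1c18, and 40 of all genes were called higher. Changes near 0 reversed. Aldh1a2 was -0.01 with array weights, -0.04 with the epithelial and -0.02 with the endothelial covariate, and -0.06 to 0.10 leaving out 1 array. Aldh1a3 was -0.01 with array weights, -0.05 with the epithelial covariate, -0.10 without syngeneic arrays 3 and 4, and -0.09 to 0.11 leaving out 1 array. Dhrs3 was 0.01 with array weights, 0.19 with the epithelial and 0.14 with the endothelial covariate, 0.19 without syngeneic arrays 3 and 4, and -0.14 to 0.03 leaving out 1 array. Akr1a1 was -0.03 with the epithelial and 0.00 with the endothelial covariate, and -0.02 without syngeneic arrays 3 and 4. The cause of these moves was not tested.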

Other observations

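Probe sets that list several symbols were left out of the fit, and 3 of them list a gene of these families. The set of Rdh18-ps and Rdh16 ranged widely, with 7.22, 6.53, 5.19 and 5.04 on allogeneic and 5.68, 6.45, 3.87 and 5.30 on syngeneic arrays. Its difference of 0.67 is opposite in sign to the -0.56 of the Rdh16 probe set in the report, where the latter did not pass the threshold and the former was not tested. The set of Akr1c13 and Akr1c12 had 10.20, 9.96, 10.07 and 9.93 against 10.07, 10.26, 9.56 and 9.65, a difference of 0.15. The set of Aldh7a1 and Phax had 6.36, 6.54, 6.49 and 6.21 against 6.23, 6.37, 6.07 and 6.40, a difference of 0.13.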
